A study of Mus musculus with 6 samples.

Results

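The MHC class II pathway was followed here through 8 genes: the transactivator gene Ciita, the invariant chain gene Cd74, the classical chain genes H2-Aa, H2-Ab1 and H2-Eb1, and the peptide-loading genes H2-DMa, H2-DMb1 and H2-DMb2. Their chromatin accessibility was read from 6 bulk ATAC-seq libraries of mouse small intestinal organoids, in a table of 55056 windows of 200 bp. ATAC-seq counts the fragments that the transposase Tn5 cuts out of open DNA. A window was taken as a gene's when the nearest end of any protein-coding gene body belonged to that gene and lay within 50 kb of the window's centre. The rule assigned 38494 windows to 15997 of 21900 annotated genes, and 10 of these windows to 7 of the 8 class II genes. No window was assigned to H2-DMb2.

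The RANKL group held 3 libraries from organoids treated for 6 days with RANKL at 100 ng/ml, a cytokine of the TNF family that drives epithelial cells towards M cells, the antigen-sampling cells above lymphoid follicles. The control group held 3 libraries from organoids in ENR medium (EGF, Noggin and R-spondin), also collected at day 6. Replicate numbers stand for separate differentiation experiments, so p-values measure the spread between experiments on a single line. All organoids were of the line labelled line26 wild type, Lgr5GFPDTR/+, derived from a female mouse, so both groups carried the reporter and toxin receptor allele at Lgr5. The mouse's age is not given in the sources used here. Before RANKL, the cultures had spent 3 days with valproic acid at 1.5 mM, a histone deacetylase inhibitor, and CHIR99021 at 3 µM, a GSK3 inhibitor, and then 1 day in ENR medium. The control libraries carry the label CVENRD6, in which CV could stand for CHIR99021 and valproic acid. The labels do not say outright whether the controls had the same step, so RANKL and that step cannot be told apart.

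MHC class II molecules are pairs of an alpha and a beta chain that show peptides from endocytosed proteins to CD4+ T cells. The pairs assemble with the invariant chain, which fills the peptide groove until proteases of endolysosomes trim it and the H2-DM complex exchanges its last fragment for a peptide. The genes are switched on by CIITA, a coactivator that does not bind DNA itself but is held at their promoters by the RFX, CREB and NF-Y factors on conserved X and Y boxes. Class II molecules are best known from dendritic cells, macrophages and B cells, and epithelium of the small intestine, its stem cells included, can also carry them.

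The X and Y boxes can be seen in the promoters themselves. Of the 8 genes, 5 had a promoter in the RefSeq table of GRCm38.p6 (6 entries of 300 bases each, from 250 before to 50 after a transcription start). The stretches below, each 67 bases long and read 5′ to 3′ on the gene's strand, are shown because they hold the Y box core TGATTGG at the same offset. Capitals mark that core and, upstream of it, the X box core AACNGATG or, in H2-Aa, the palindrome TGACGTCA that holds the CREB-type core GACGTCA of the X2 box on both strands.
H2-DMb2, chr17:34145107-34145173, plus strand: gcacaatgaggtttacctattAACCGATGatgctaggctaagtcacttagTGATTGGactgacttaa
H2-DMb1, chr17:34153078-34153144, plus strand: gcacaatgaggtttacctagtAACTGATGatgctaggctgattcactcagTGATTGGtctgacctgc
H2-Aa, chr17:34287857-34287923, minus strand: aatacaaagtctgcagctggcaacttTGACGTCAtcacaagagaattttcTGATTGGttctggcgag
H2-Eb1, chr17:34305756-34305822, plus strand: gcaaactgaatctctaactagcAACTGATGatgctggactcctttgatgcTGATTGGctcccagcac

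Between H2-DMb2 and H2-DMb1, 58 of the 67 bases were identical at the same position (86.6%), while the other pairs shared 26.9% to 34.3%. Searched on both strands, TGATTGG was found in 7.82% of all 32851 promoters in the table, AACNGATG in 2.32% and GACGTCA in 3.21%. An AACNGATG at most 60 bases upstream of a TGATTGG on the same strand was found in 9 promoters (0.0274%), among them those of H2-Eb1, H2-DMb1 and H2-DMb2. The letters were chosen with these promoters in view, so these shares describe the letters and test nothing. The other motifs searched were the NF-kB consensus (4.51% of promoters), GAGGAAG (13.6%), TTCNNNGAA (8.30%) and an ISRE-type motif (3.44%). The NF-kB consensus matched the H2-Aa promoter at positions -131 to -122 and, overlapping on the other strand, -130 to -121, counted from the transcription start. TTCNNNGAA matched the H2-DMb2 promoter at -218 to -210. The 2 promoter entries of H2-DMa, chr17:34122582-34122881 and chr17:34125268-34125567, held none of these motifs. Like the entry of H2-DMb2, they belong to starts inside the gene body of the annotation. Of the 5 genes with an entry, H2-Aa had its promoter covered by a window of the table, from 171 bases before to 29 bases after the start, and the entries of H2-DMa, H2-DMb1, H2-DMb2 and H2-Eb1 were covered by none. Whether the windows of Cd74, Ciita and H2-Ab1 hold such boxes was not analysed here, since these genes had no entry.

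Accessibility is given as CPM, a window's count per 1000000 counts of its library over all windows, after scaling by TMM. Total counts were 322173, 466521 and 828445 in RANKL replicates 1, 2 and 3, and 920681, 976881 and 455083 in control replicates 1, 2 and 3. A count of 3, taken here as the floor, was worth 3.73 to 9.26 CPM in RANKL libraries and 3.00 to 6.43 CPM in controls, and values near it rest on a few fragments. Across windows, the log2 CPM of RANKL libraries correlated with each other at 0.687 to 0.772, and that of controls at 0.817 to 0.867. In cell type markers, the summed CPM over 9 M cell genes was 686.5 to 859.5 in RANKL and 456.2 to 508.2 in control libraries, and over 10 genes of intestinal epithelium 1086 to 1255 in RANKL and 1327 to 1360 in control libraries. Spib, the transcription factor gene that M cells depend on, named after its values were seen, had 22.6, 15.8 and 32.5 CPM in RANKL libraries and 1.36, 3.78 and 0 CPM in controls, too few counts to be tested at 200 bp. Counted over 2 kb around the same centre, Spib was called higher, with a log2 fold change of 2.55 ± 0.38 (SE), at an adjusted p of 1.951e-07 in edgeR. Bulk libraries cannot tell more cells of a type from more open chromatin per cell.

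Of the 10 class II windows, 6 held enough counts to be tested, 2 rose, none fell and 4 were not called (edgeR quasi-likelihood test, Benjamini-Hochberg adjusted p at or under 0.05 over 21618 windows). Of all tested windows, 20.1% were called, 10.0% higher and 10.0% lower. The 2 that rose lay at Cd74, where accessibility was 9.50 times the control mean, and upstream of H2-Eb1, where it was 2.64 times. In 6 of the 10 windows every RANKL library stood above every control, against 13.6% of all 55056 windows, and in none did every RANKL library stand below, against 11.6%. The RANKL mean was the higher in all 10, by 1.05 times at H2-Aa and up to 9.50 times at Cd74. At H2-Aa this depends on the scaling. With CPM taken over counts assigned to genes, its means were 12.80 CPM with RANKL and 12.84 CPM in controls. The share of all windows with a higher RANKL mean was not counted. The median log2 fold change of the 6 tested windows was 0.56, against 0.01 over all tested windows. The 2 windows that rose held enough counts for the test only in RANKL libraries, where they were high. Their share and this median are therefore descriptions of the tested windows. Summed over the 10 windows, accessibility was 287.1, 250.2 and 280.8 CPM in RANKL libraries and 169.6, 153.1 and 147.8 CPM in controls. Without Cd74 the sums were 247.0, 215.1 and 248.5 CPM in RANKL libraries and 167.5, 146.1 and 145.7 CPM in controls, so the groups stayed apart.

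**Figure D1:**
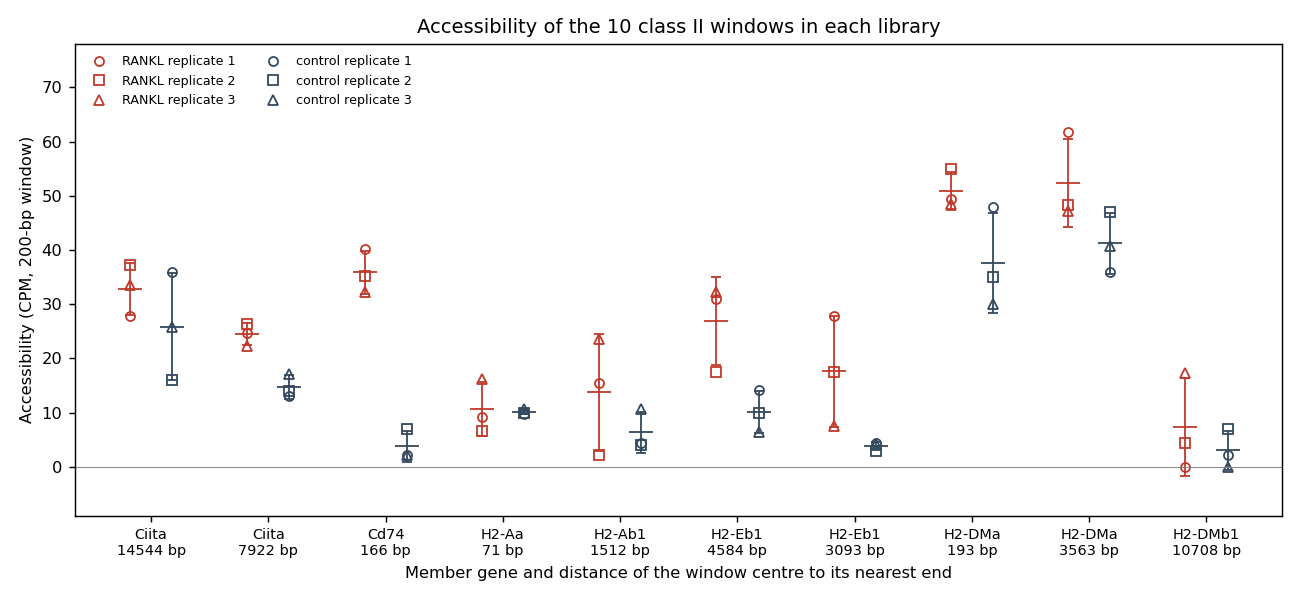
Accessibility in CPM of each of the 10 class II windows (y axis), with the gene and the distance of the window's centre from its nearest end in bp (x axis). Symbols are single libraries by replicate, RANKL left and control right at each gene, with bars for mean and SD (n = 3 each); the Cd74 window shows the widest gap, 32.3 to 40.1 CPM with RANKL and 2.14 to 7.0 CPM in controls.

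Ciita, the gene of the transactivator, had 2 windows, both outside the gene on its lower-coordinate side (gene body chr16:10480014-10531064; its strand is not in the tables used here). The farther window, chr16:10465371-10465570, centred 14544 bp from the gene, had 27.8, 37.3 and 33.5 CPM in RANKL libraries and 35.9, 16.01 and 25.7 CPM in controls. The groups overlapped, since control replicate 1 stood above RANKL replicates 1 and 3. Its log2 fold change was 0.37 ± 0.33 (SE), at an adjusted p of 0.4708 in edgeR. The nearer window, chr16:10471993-10472192, 7922 bp from the gene, had 24.7, 26.3 and 22.4 CPM in RANKL libraries and 13.05, 14.0 and 17.1 CPM in controls. Here the lowest RANKL library stood above the highest control, and yet the window was not called: its log2 fold change was 0.74 ± 0.43 (SE), at an adjusted p of 0.2327 in edgeR.

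Summed over both windows, Ciita had 68.9 ± 6.5 CPM with RANKL and 51.2 ± 12.1 CPM in controls (SD, n = 3 each; CPM of gene sums use only counts assigned to genes), a log2 fold change of 0.45 ± 0.26 (SE), at an adjusted p of 0.25 in edgeR. When fragments were counted over 2 kb around the same centres, the sum gave 0.60 ± 0.21 and was called, at an adjusted p of 0.03186 in edgeR. At that width 1467 of 15594 tested genes were called higher. A further window lay inside the Ciita body, chr16:10521259-10521458, but nearer to an end of the neighbouring gene Dexi, 8849 bp away. It had 3.09, 11.0 and 3.73 CPM in RANKL libraries and 13.05, 11.0 and 10.7 CPM in controls, values that overlapped and were too low to be tested. The means ran opposite to those of the windows outside the gene, 5.93 ± 4.38 CPM with RANKL and 11.6 ± 1.3 CPM in controls (SD, n = 3 each). With windows assigned to the nearest gene body, which adds this window, the log2 fold change of Ciita was 0.21, with an edgeR adjusted p of 0.5926.

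Cd74, the gene of the invariant chain, gave the largest difference of the 10 windows. Its single window, chr18:60803584-60803783, was centred 166 bp outside the lower-coordinate end of the gene (chr18:60803849-60812652). It held 13, 16 and 26 counts in RANKL libraries and 2, 7 and 1 counts in controls, which is 40.1, 35.1 and 32.3 CPM with RANKL and 2.18, 7.0 and 2.14 CPM in controls. Every RANKL library stood above every control, and the lowest RANKL library had over 4 times the CPM of the highest control. Accessibility averaged 35.9 ± 4.0 CPM with RANKL and 3.77 ± 2.80 CPM in controls (SD, n = 3 each), and the log2 fold change was 3.03 ± 0.52 (SE), at an adjusted p of 2.826e-07 in edgeR. Within experiments 1, 2 and 3, paired by replicate number, the log2 ratio of RANKL to control CPM was 4.21, 2.33 and 3.92. The size of the change rests on few control counts: without control replicate 2, which held 7 of the 10 control counts, the log2 fold change was 3.86, and after thinning every library to the shallowest it was 4.90.

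Counting over 2 kb around the same centre gave more counts and a smaller change at Cd74. The wider window held 24, 38 and 56 counts in RANKL libraries and 6, 17 and 4 in controls. Accessibility there averaged 25.7 ± 1.9 CPM with RANKL and 4.50 ± 2.31 CPM in controls (SD, n = 3 each), a log2 fold change of 2.42 ± 0.37 (SE), at an adjusted p of 9.235e-07 in edgeR. The central 200 bp held 46.6% of the 2-kb counts with RANKL and 37.0% in controls, where 10 of 27 counts lay in the centre.

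**Figure D2:**
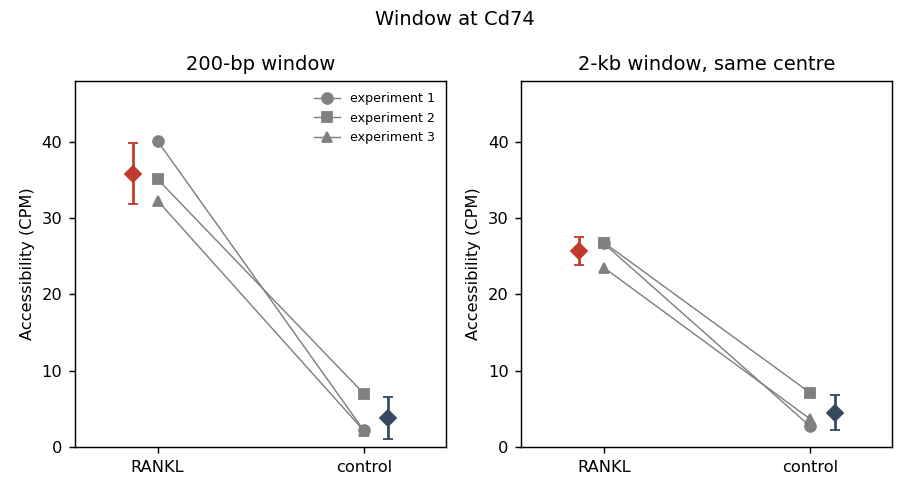
Accessibility of the Cd74 window in CPM (y axis) in RANKL and control libraries (x axis), counted over 200 bp (left panel) and over 2 kb around the same centre (right panel). Grey lines join libraries of the same replicate number, taken as the same experiment, and diamonds give mean and SD (n = 3 each). All 3 lines run downwards from RANKL to control at both widths.

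H2-Eb1, the gene of the beta chain of the I-E molecule, was the other gene to rise. Its body is on the plus strand of chromosome 17, chr17:34305867-34316674, and the stretch printed above lies just before its start. The upstream window, chr17:34301184-34301383, was centred 4584 bp before that start and had 30.9, 17.6 and 32.3 CPM in RANKL libraries and 14.1, 10.0 and 6.43 CPM in controls. RANKL replicate 2 was the lowest of its group and still above control replicate 1, the highest control. The mean was 26.9 ± 8.1 CPM with RANKL and 10.2 ± 3.9 CPM in controls (SD, n = 3 each), a log2 fold change of 1.33 ± 0.45 (SE), at an adjusted p of 0.01978 in edgeR. The call ended with the experiment as a replicate block (edgeR adjusted p = 0.0523), in DESeq2 (0.0874) and without RANKL replicate 1 (0.0520), control replicate 2 (0.0908) or control replicate 3 (0.0763). Over 2 kb the groups overlapped, with 18.9, 19.8 and 24.8 CPM in RANKL libraries and 13.6, 12.1 and 20.2 CPM in controls, and the log2 fold change was 0.57 ± 0.30 (SE; adjusted p = 0.1914 in edgeR).

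The second H2-Eb1 window, chr17:34313482-34313681, lay inside the gene body, 3093 bp from its distal end. It held 9, 8 and 6 counts in RANKL libraries and 4, 3 and 2 counts in controls, or 27.8, 17.6 and 7.46 CPM with RANKL and 4.35, 3.00 and 4.28 CPM in controls. The groups did not overlap, but the RANKL libraries differed among themselves by more than 3 times and the counts were too low for the test. Tested with no filter on low counts, its log2 fold change was 2.05 ± 0.76 (SE), at an adjusted p of 0.06304 in edgeR. Summed over both windows, H2-Eb1 had 71.4, 42.1 and 47.3 CPM in RANKL libraries and 23.1, 16.4 and 13.7 CPM in controls, with no overlap. The sum rose, with a log2 fold change of 1.49 ± 0.39 (SE), at an adjusted p of 0.002297 in edgeR, and with the replicate block it was 1.56 (0.003342). The call of the sum ended only when all libraries were thinned to the depth of the shallowest (adjusted p = 0.05554), and over 2 kb the change of the sum was smaller, 0.80 ± 0.25 (0.01268).

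H2-Aa, the gene of the I-A alpha chain, had a window on its RefSeq promoter entry. Its window, chr17:34287795-34287994, spanned the start of the gene (minus strand, chr17:34282744-34287823) and held the stretch printed above with both cores in capitals, as well as the NF-kB match. It had 9.26, 6.59 and 16.2 CPM in RANKL libraries and 9.79, 10.0 and 10.7 CPM in controls. The RANKL libraries lay on both sides of the controls, with RANKL replicate 3 the highest of all 6 and RANKL replicates 1 and 2, with 3 counts each, the lowest. The mean was 10.7 ± 4.9 CPM with RANKL and 10.2 ± 0.5 CPM in controls (SD, n = 3 each), and the window held too few counts for the test. Over 2 kb its log2 fold change was 0.18 ± 0.44 (SE), at an adjusted p of 0.8355 in edgeR, and this error leaves room for a change in either direction.

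H2-Ab1, the gene of the I-A beta chain, had a window 1512 bp outside its lower-coordinate end (window chr17:34261616-34261815; gene chr17:34263227-34269418). It had 15.4, 2.2 and 23.6 CPM in RANKL libraries and 4.35, 4.00 and 10.7 CPM in controls. RANKL replicates 1 and 3 stood above all controls and RANKL replicate 2, with a single count, below all of them. The window was not tested at 200 bp. Over 2 kb every RANKL library stood above every control, at 17.8, 7.06 and 13.02 CPM in RANKL libraries and 6.8, 4.6 and 6.43 CPM in controls, with a log2 fold change of 1.06 ± 0.46 (SE) that was not called (edgeR adjusted p = 0.0994).

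H2-DMa, the gene of the alpha chain of the peptide exchanger, carried the most accessible of the 10 windows and small differences. The first, chr17:34119401-34119600, was centred 193 bp before the lower-coordinate end of the gene (plus strand, chr17:34119693-34139101) and lay inside the body of the neighbouring gene Brd2, so its signal cannot be given to either gene alone. It had 49.4, 54.9 and 48.5 CPM in RANKL libraries and 47.8, 35.0 and 29.99 CPM in controls. The lowest RANKL library stood just above the highest control, and the log2 fold change of 0.38 ± 0.26 (SE) was not called (edgeR adjusted p = 0.3104). The second, chr17:34135439-34135638, inside the gene and 3563 bp from its distal end, had 61.7, 48.3 and 47.2 CPM in RANKL libraries and 35.9, 47.0 and 40.7 CPM in controls. Here too the groups were only just apart, by less than 1 CPM, and the log2 fold change was 0.29 ± 0.25 (SE; adjusted p = 0.4493 in edgeR). Over 2 kb the groups overlapped in both windows, with log2 fold changes of 0.06 ± 0.17 and 0.11 ± 0.22 (SE). A further window in the gene body, chr17:34126908-34127107, was nearer to an end of Brd2 and was not called either, at 20.9 ± 9.2 CPM with RANKL and 15.3 ± 6.0 CPM in controls (SD, n = 3 each; edgeR adjusted p = 0.4908). Summed over the 2 windows assigned to it, H2-DMa had a log2 fold change of 0.27 ± 0.19 (SE), at an adjusted p of 0.3597 in edgeR.

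H2-DMb1 and H2-DMb2 encode beta chains that pair with the product of H2-DMa. The window of H2-DMb1, chr17:34170838-34171037, lay 10708 bp beyond the distal end of the gene (plus strand, chr17:34153191-34160229). It held 0, 2 and 14 counts in RANKL libraries and 2, 7 and 0 counts in controls, so the 7.26 CPM mean of RANKL libraries rests on replicate 3, and the window was not tested. Over 2 kb it had 4, 11 and 33 counts in RANKL libraries and 9, 15 and 0 in controls, with a log2 fold change of 1.23 ± 0.60 (SE; adjusted p = 0.1593 in edgeR). H2-DMb2, chr17:34143229-34151553, had no window, and nothing is said here about its accessibility.

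All windows have the same width, so their levels can be set in order. In RANKL libraries the mean CPM ran from 52.4 and 50.9 at H2-DMa through 35.9 at Cd74, 32.9 at the farther Ciita window, 26.9 upstream of H2-Eb1, 24.5 at the nearer Ciita window, 17.6 inside H2-Eb1, 13.7 at H2-Ab1 and 10.7 at H2-Aa to 7.26 at H2-DMb1. In controls it ran from 41.2 and 37.6 at H2-DMa through 25.9 and 14.7 at Ciita, 10.2 both upstream of H2-Eb1 and at H2-Aa, 6.35 at H2-Ab1, 3.88 inside H2-Eb1 and 3.77 at Cd74 to 3.06 at H2-DMb1. Cd74 was thus next to last in controls and next after H2-DMa with RANKL, where its libraries overlapped those of the farther Ciita window (27.8 to 37.3 CPM) but not those of H2-DMa (47.2 to 61.7 CPM). Neighbours in both orders otherwise mostly overlapped, and no test was made between windows.

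**Figure D3:**
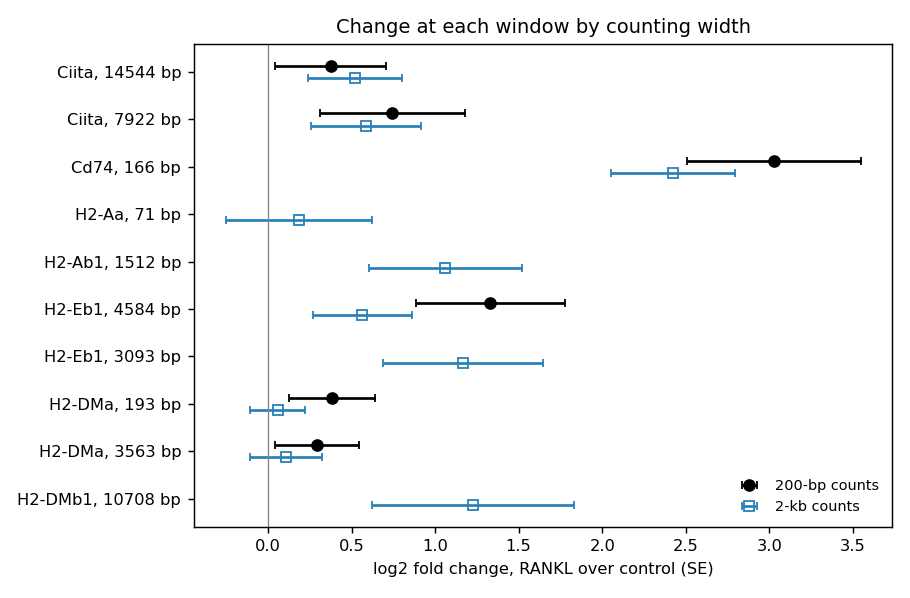
Log2 fold change of RANKL over control with SE (x axis) for each class II window (y axis, gene and distance from its nearest end in bp), for 200-bp counts (black circles, the 6 windows tested) and for 2-kb counts around the same centres (blue squares, all 10). Only the Cd74 window lies above 2 at both widths, and the value upstream of H2-Eb1 goes from 1.33 over 200 bp to 0.57 over 2 kb.

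The wider counts let all 10 windows be tested. At 2 kb, 1 window rose, that of Cd74, none fell and 9 were not called, while 8.39% of all 49935 windows tested were called higher. The median log2 fold change of the 10 was 0.58, against 0.01 over all windows at that width. Over the whole table, 33.9% to 36.5% of the 2-kb counts fell in the central 200 bp in RANKL libraries and 39.9% to 41.0% in controls. The part of this difference in the results by width was not tested.

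Taken by gene, 4 of the 7 class II genes with a window could be tested, and 2 of them rose, Cd74 and H2-Eb1, while none fell. Among 12466 genes tested, 7.02% were called higher and 8.33% lower, as 875 and 1038 genes. With sums scaled by all windows instead, 1162 genes were called higher and 785 lower, and the same 2 class II genes were called. The median log2 fold change of the 4 genes was 0.97, against 0.01 over all genes. Cd74 and H2-Eb1 held enough counts for the test through their RANKL libraries, where they were high, so this median too is a description.

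The class II region of chromosome 17, from 50 kb before H2-DMa to 50 kb past H2-Eb1 (chr17:34069693-34366674, 297.0 kb), held 17 windows, assigned to members and other genes alike. Of these 7 were tested, 2 rose, none fell and 5 were not called, where 10.0% of all tested windows were called higher and 10.0% lower. The 2 were the window upstream of H2-Eb1 and a window 2574 bp outside Tap2, which encodes a subunit of the peptide transporter for MHC class I. The Tap2 window, chr17:34218796-34218995, had 43.2, 32.9 and 39.8 CPM in RANKL libraries and 14.1, 16.01 and 6.43 CPM in controls. The groups were far apart, and the log2 fold change was 1.53 ± 0.38 (SE), at an adjusted p of 0.0009288 in edgeR. Between Tap2 and H2-Eb1 lay the windows of H2-Ob, H2-Ab1 and H2-Aa, none of which was tested. The median log2 fold change of the 7 tested windows was 0.46, and in 5 of the 17 windows every RANKL library stood above every control (13.6% of all windows), in 0 below (11.6%). Apart from the called Tap2 window, these were the windows of H2-DMa and H2-Eb1, already counted among the class II windows above. The 2 called windows here also held enough counts for the test through their RANKL libraries.

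**Figure D4:**
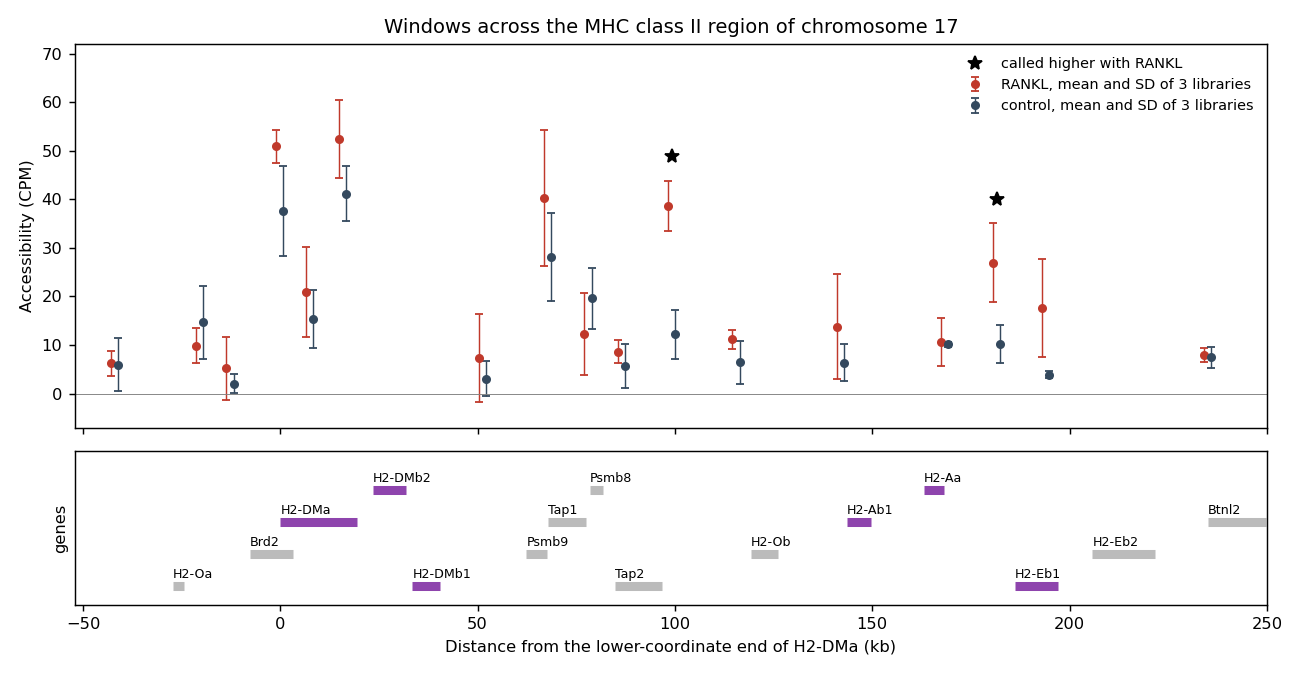
Accessibility in CPM (upper panel, mean and SD of 3 RANKL and 3 control libraries) of the 17 windows across the class II region, against the distance from the lower-coordinate end of H2-DMa in kb; the lower panel draws the gene bodies, class II members in purple. Stars mark the 2 windows called higher, near Tap2 and upstream of H2-Eb1, and the highest windows at H2-DMa differ by less.

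Genes that act with the 8 were read from the same gene sums. Of 38 further genes in 6 lists, 35 had a window and 29 were tested. Of these 2 rose, 3 fell and 24 were not called, with a median log2 fold change of -0.04. These are few of 29 genes and near the shares over all genes, 7.02% higher and 8.33% lower, so the counts are not a result about the lists. Among the other class II genes, H2-Oa and H2-Ob, which encode the inhibitor of H2-DM, had too few counts and H2-Eb2 had no window.

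None of 6 tested genes for factors that bind class II promoters was called. Nfyc had 114.7 ± 23.5 CPM with RANKL and 94.2 ± 11.9 CPM in controls, Nfyb 107.7 ± 7.1 CPM with RANKL and 86.6 ± 4.3 CPM in controls, and Rfxap 95.1 ± 41.5 CPM with RANKL and 78.6 ± 17.4 CPM in controls (SD, n = 3 each; edgeR adjusted p from 0.2929 to 0.5395). The median log2 fold change of these 6 was 0.26. Nfya, named after its value was seen, held too few counts at 200 bp, with 1, 0 and 14 in RANKL libraries and 3, 3 and 0 in controls. Its higher RANKL mean there rests on replicate 3. Over 2 kb it was called higher, with a log2 fold change of 1.51 ± 0.58 (SE), at an adjusted p of 0.04884 in edgeR. At that width 1467 of 15594 tested genes were called higher.

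Of 9 genes on the route from interferon-gamma to Ciita, 2 fell and none rose by gene sum, beside 8.33% lower and 7.02% higher over all genes. Ifngr2, a chain of the interferon-gamma receptor, had 75.2, 97.3 and 108.0 CPM in RANKL libraries and 171.2, 134.8 and 131.4 CPM in controls, and fell by 0.60 ± 0.18 on the log2 scale (SE; adjusted p = 0.01115 in edgeR). Jak1, which like Jak2 encodes a kinase that the receptor uses, had 90.2, 157.7 and 153.9 CPM in RANKL libraries and 173.9, 182.7 and 221.8 CPM in controls, and fell by 0.42 ± 0.16 (SE; adjusted p = 0.04398 in edgeR). In both genes every RANKL library stood below every control. Ifngr1, the other receptor chain, named here after its value was seen, had a log2 fold change of 0.53 ± 0.20 (SE) and just missed the threshold (edgeR adjusted p = 0.05055). The 3 others with the most counts, Irf2, Jak2 and Irf1, had log2 fold changes of -0.20, 0.16 and 0.20 and were not called. By single windows, Ifngr1 had 1 of 2 tested windows called higher and Jak2 1 of 4. Ifngr2 had 1 of 4 called lower, Jak1 1 of 2 and Irf2 1 of 7, and the other genes of the list had none called. Over all tested windows 10.0% were called higher and 10.0% lower, so these counts are not a result about the list.

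Of 6 tested genes for endolysosomal processing, Ctsd rose, Ctsh fell and 4 were not called. Ctsd, the gene of the aspartic protease cathepsin D, had 90.2, 78.9 and 88.8 CPM in RANKL libraries and 34.0, 32.8 and 43.8 CPM in controls, a log2 fold change of 1.27 ± 0.27 (SE), at an adjusted p of 8.6e-05 in edgeR. Ctsh, the gene of cathepsin H, had 142.8, 97.3 and 96.2 CPM in RANKL libraries and 148.1, 141.1 and 194.4 CPM in controls, and fell by 0.54 ± 0.18 on the log2 scale (SE; adjusted p = 0.01872 in edgeR), although RANKL replicate 1 stood within the controls. Its 4 windows were not alike: 1 was called higher, 1 lower and the others were not called. Lgmn, Ctsl and Ctsb, genes of other lysosomal proteases, had log2 fold changes of -0.12, -0.16 and -0.10 and were not called. Ctss, the protease gene best known for trimming the invariant chain and named here after its value was seen, held 18.7 ± 3.5 CPM with RANKL and 18.8 ± 7.2 CPM in controls (SD, n = 3 each; edgeR adjusted p = 0.9049).

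Turnover and co-stimulation genes gave no call among 4 tested gene sums. Cd274, which encodes the inhibitory ligand PD-L1, had a log2 fold change of 0.49 ± 0.22 (SE; adjusted p = 0.1129 in edgeR), with every RANKL library above every control, and the single window of it that was tested was called higher. Marchf8, a ubiquitin ligase gene, and Icosl, a ligand gene, had values of -0.04 and -0.30. Cd86, named after its value was seen, had -0.76 ± 0.36 (SE; adjusted p = 0.1405 in edgeR), with overlapping groups. Among neighbours in the class II region, Tap2 rose, with a log2 fold change of 1.22 ± 0.34 (SE; adjusted p = 0.005809 in edgeR), while Psmb9, Brd2 and Tap1 had values of 0.53, 0.56 and -0.60 and were not called. Over 2 kb the calls of Tap2 and Ctsh held (edgeR adjusted p = 0.02004 and 0.001888), and those of Ctsd, Ifngr2 and Jak1 ended (0.07785, 0.1349 and 0.4474). Irf2, not called at 200 bp, was called lower over 2 kb (0.03791).

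**Figure D5:**
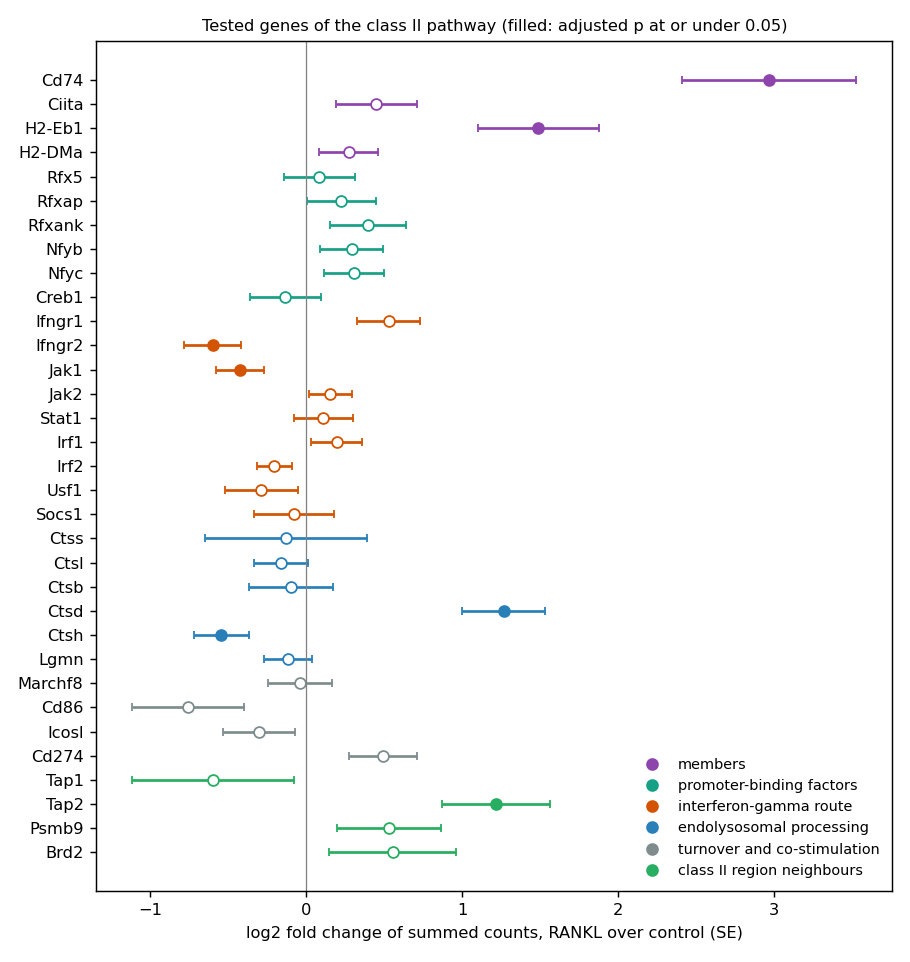
Log2 fold change of RANKL over control with SE (x axis) of counts summed per gene, for the 4 tested class II genes and the 29 tested genes of the 6 lists (y axis, coloured by list). Filled symbols passed an edgeR adjusted p of 0.05: Cd74 at 2.97, H2-Eb1 at 1.49, Ctsd at 1.27 and Tap2 at 1.22 above 0, and Ifngr2, Jak1 and Ctsh below 0.

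Since class II genes are also open in haematopoietic cells, 16 of their marker genes were read in the same libraries. Of these 9 had a window and 7 were tested, and none was called by gene sum at 200 bp. Their summed CPM was 379.6 to 402.4 in RANKL libraries and 331.4 to 377.8 in controls, and Cd3e, Cd68, Lyz2 and Zbtb46 were among those with no window. Cd209a, a gene of dendritic cells and the marker of this list with the most counts, had 131.6, 110.4 and 76.9 CPM in RANKL libraries and 66.6, 70.6 and 79.4 CPM in controls. RANKL replicate 3 stood within the controls, and the log2 fold change of the sum was 0.49 ± 0.22 (SE; adjusted p = 0.1061 in edgeR), while in the fit of windows its only window was called higher. Ptprc, the CD45 gene carried by nearly all haematopoietic cells, chosen after its value was seen, had 47.0 ± 2.1 CPM with RANKL and 48.8 ± 5.4 CPM in controls (SD, n = 3 each). Batf3, a transcription factor gene of dendritic cells chosen after its value was seen, had 61.6 ± 5.3 CPM with RANKL and 35.0 ± 5.0 CPM in controls (SD, n = 3 each; edgeR adjusted p = 0.05901), and over 2 kb it was called higher, with a log2 fold change of 0.68 ± 0.23 (SE; adjusted p = 0.02291 in edgeR). Over all genes 7.02% were called higher and 8.33% lower, and the marker lists are short. Of 6 tested M cell markers 3 were called higher, Marcksl1, Sox8 and Tnfrsf11a, and of 9 tested epithelial markers Krt18 and Lgr5 were called lower. Of 3 tested mesenchymal markers Pdgfrb was called higher, and of 3 tested endothelial markers Cdh5. Vim, a mesenchymal marker named after its value was seen, went the other way but was not tested at 200 bp. It had 5.96 ± 5.35 CPM with RANKL and 20.3 ± 4.9 CPM in controls (SD, n = 3 each). Over 2 kb Vim was called lower, with a log2 fold change of -1.44 ± 0.44 (SE; adjusted p = 0.01147 in edgeR). The summed CPM of 6 mesenchymal genes was 101.5 to 182.0 in RANKL libraries and 98.6 to 130.5 in controls, and that of 4 endothelial genes 136.7 to 195.5 in RANKL libraries and 139.9 to 205.2 in controls. The part of these cell types in the class II results was not tested.

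The genes whose accessibility over the 6 libraries was most like that of H2-DMa, the tested member with the highest CPM, were Elovl5, Cyp2s1, Dbp, Rcor1 and Rbp2. The measure was the Euclidean distance of centred log2 CPM among 12031 genes, and it was 0.067 for Elovl5 and 0.16 for Rbp2. All 5 had higher CPM in every RANKL library than in every control, and none was called. For Cd74, chosen after its values were seen, the nearest were Tbc1d21, Ecscr, Olfr1402, Slc36a3 and Vmo1, at distances of 0.67 to 0.79. Each of these 5 was called higher, and each had at most 7.56 CPM in any control. Both sets of 5 were picked by their values in these same 6 libraries. Their directions and calls follow from that choice and test nothing.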

How the data were processed

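The authors deposited raw read counts per 200-bp window for 6 libraries, each from 50000 cells and read at 38 bp per the labels' protocols. A second deposited table holds a score for 55050 of these centres at 2 kb width. Its values fit ln(count + 1), set to mean 0 and SD 1 in each library, and undoing this gave 2-kb counts within 0.0074 of whole numbers. Tools named in the submitters' processing notes are MACS2 2.2.7, DESeq2 1.34.0, BWA 0.7.17, fastp 0.20.1 and Picard, with the build mm10 (GRCm38). How windows were chosen, reads counted or shifted for the Tn5 cut, and duplicates treated is not given in the sources used here. Window centres lay at least 4003 bp apart, so a broad open region can be read in part.

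Windows, and counts summed per gene, were fitted in edgeR 4.0.16 under R 4.3.3 (filterByExpr, TMM, robust quasi-likelihood fit, no covariates) over the whole table, and p-values were adjusted by Benjamini-Hochberg and called at 0.05. Alternatives were DESeq2 1.42.0, RLE factors, no filter, an experiment block, each library left out, 2-kb counts, thinning to 322173 counts, windows within 5 kb, nearest gene bodies and another scaling of gene sums. Same-numbered libraries were taken as the same experiment, and their deviations from group means correlated at -0.034, 0.015 and -0.013 for experiments 1, 2 and 3. Pairs of unlike number correlated at -0.03 to 0.036, so these values do not single out the pairing. The labels name no molecular identifiers, so counted fragments may include copies. Gene ends, strands and promoters are from RefSeq tables of GRCm38.p6; they give no exons.

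All windows of the 8 genes are reported. From 6 lists of related genes, each called gene and at most 3 others with the most counts are named, and genes outside this rule are marked. Also named are the 5 genes most like the tested member with the highest CPM, called markers, and the windows called in the region. A listed marker is not reported here by name. The genes and lists were chosen with earlier results of these data known.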

Additional observations from a re-analysis of the deposited data

How the results depend on the processing

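The Cd74 window kept its call in all 12 alternatives, with log2 fold changes of 2.42 to 4.90 and edgeR or DESeq2 adjusted p of 2.499e-07 to 0.000167. The number of class II windows called higher was 2, and it was 1, that of Cd74, with 2-kb counts, DESeq2, the replicate block and thinning, and 1 to 2 when libraries were left out in turn. The window lost was that upstream of H2-Eb1, which kept its call in 4 of 10 alternatives (log2 fold change 0.57 to 1.60, adjusted p 0.01749 to 0.1914) and could not be tested without RANKL replicate 3 or after thinning. The number of class II genes called higher was 2 of the 4 tested, and it was 1 after thinning. With 2-kb counts it was 3, where Ciita was added, but there all 7 class II genes with a window were tested. At that width 1467 of 15594 tested genes were called higher. No class II window or gene was called lower in any alternative run. Paired by experiment, as a replicate block, the fit called 3635 windows and 1586 genes, against 4336 and 1913 without it, and among class II results it ended only the call upstream of H2-Eb1. Over the whole table, 9262 windows were called with 2-kb counts and 1392 after thinning, and 2814 to 5015 with a library left out. For genes the counts were 3387 with 2-kb counts, 943 in DESeq2, 911 after thinning, 886 with windows within 5 kb, and 1229 to 1766 with a library left out; the lowest of both came without RANKL replicate 3, and for genes 1243 without control replicate 1. With no filter on low counts 3204 windows were called higher and 1973 lower, and in DESeq2 2211 higher and 989 lower, against 2167 and 2169. The scaling of gene sums by all windows was added after seeing the data. At 3.00 to 9.26 CPM for 3 counts, differences at H2-Aa, H2-Ab1, H2-DMb1 and inside H2-Eb1 were limited by depth. The causes were not tested.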
